A study of Mus musculus with 6 samples.

Results

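The genes described here are 38 genes of the lysosome, chosen by name as hydrolytic enzymes, membrane proteins, proton pump subunits, channels and regulators of the organelle. Of the 38, 37 had a probe set annotated to that gene alone and were measured among 18193 genes, each through the brightest of its probe sets on average. Cd63 had none and is not analysed here. Whole-lung RNA was hybridised to Affymetrix arrays from 3 lungs labelled Foxa2-/- and from 3 labelled wildtype, control. All were taken at postnatal day 15, and the design text calls them littermates. Foxa2 encodes a forkhead protein that controls genes in airway and alveolar epithelium, and the study asked how its loss relates to type 2 inflammation and goblet cell excess. Both groups carry the same strain entry, SPC(+)Cre(-), with Dox on embryonic days 6.5 to 12.5, an entry that does not separate the null lungs from the controls. In mouse lung work SPC commonly names the promoter of surfactant protein C, which is active in the epithelium. The labels used here do not spell it out, nor do they give the Foxa2 allele or the cells that lost it.

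Lysosomes are acidic compartments in which proteins, sugar chains and lipids taken up or recycled by a cell are broken down. A proton pump acidifies them, soluble hydrolases do the cutting, and heavily glycosylated membrane proteins line their inner face. Transcription factors of the MiT/TFE family, which includes TFEB and MITF, switch many of these genes on together. In the lung, macrophages are rich in lysosomes, and alveolar type II cells store surfactant in lamellar bodies, which are related organelles. Values below are RMA signals on the log2 scale, per array, with Foxa2-/- and control replicates each given in the order 1 to 3. Differences are Foxa2-/- minus control, with their standard error (SE), and the adjusted p is that of limma over all genes, with 0.05 as the threshold. A gene is said to have risen only where it passed that threshold.

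Foxa2 read 7.72, 5.38 and 5.13 in Foxa2-/- lungs, against 10.28, 10.56 and 10.28 in control lungs. The groups do not overlap, and among the Foxa2-/- lungs replicate 1 was highest. Foxa2 differed by -4.30 (SE 0.66), with a limma adjusted p of 0.0599. Without Foxa2-/- replicate 1 it differed by -5.12 (limma adjusted p = 0.00227), and with the title number described below as a random block by -4.64 (limma adjusted p = 0.0177). Array medians ran from 7.85 to 7.90 in Foxa2-/- lungs and from 7.89 to 7.91 in control lungs. With 3 arrays a group, precision is limited by their number. Markers of lung tissue (Sftpc, Sftpb, Scgb1a1, Ager, Foxj1, Cdh5 and Col1a1) differed by -0.16 to 0.06, and none of the 7 passed. Across probe sets Foxa2-/- replicate 1 correlated with Foxa2-/- replicates 2 and 3 at 0.976 and 0.977, and with control replicate 1 at 0.978, while Foxa2-/- replicates 2 and 3 correlated at 0.992, so replicate 1 stands apart from the other Foxa2-/- arrays. RNA integrity was read from Gapdh, whose 3-prime control probe set exceeded the 5-prime one by 0.91 to 0.97 in Foxa2-/- lungs and by 1.06 to 1.23 in control lungs. For Actb the same difference was 0.43 to 0.47 in Foxa2-/- lungs and 0.46 to 0.65 in control lungs, which overlap. The Gapdh measure moves with genotype, and its part in the results below was not tested. In the titles of Foxa2-/- replicates 2 and 3 and of control replicate 2 the group name is followed by 1 common number, whose meaning is not given.

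Signals of the lysosome genes were mostly higher in Foxa2-/- lungs, and the size of the difference varied widely between genes. The genes were chosen with earlier results of these data known. Their shares beside those of all genes are therefore a description, not a test. Of the 37 measured genes, 2 rose (Rragd and Cd68), none fell and 35 did not pass, where 0.473% of all genes were called higher and 0.0989% lower. Every Foxa2-/- array lay above all controls in 22 of the 37 (59.5%), against 10.8% of all genes, and below all controls in 0, against 8.73% of all genes. A positive difference was seen in 32 of the 37, against 50.8% of all genes. At an unadjusted p under 0.05, 23 were higher (62.2%, against 7.28% of all genes) and 0 were lower (against 5.07%). The median difference was 0.49 over the 37 and 0.01 over all genes, and the differences ran from -0.11 (Asah1) to 2.69 (Rragd). Among those 3 samples with a common number (2 Foxa2-/-, 1 control) the median was 0.41. An absolute difference of at least 1 was reached by 5 of the 37 (13.5%), against 3.4% of all genes. Averaged over the 37 genes, the level was 11.77, 11.88 and 11.74 in Foxa2-/- lungs, against 11.26, 11.28 and 11.23 in control lungs. All Foxa2-/- lungs thus lay above all controls in that average, replicate 1 included. In whole-lung RNA, a change in the number of cells of a type and a change in the RNA per cell cannot be told apart.

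**Figure D1:**
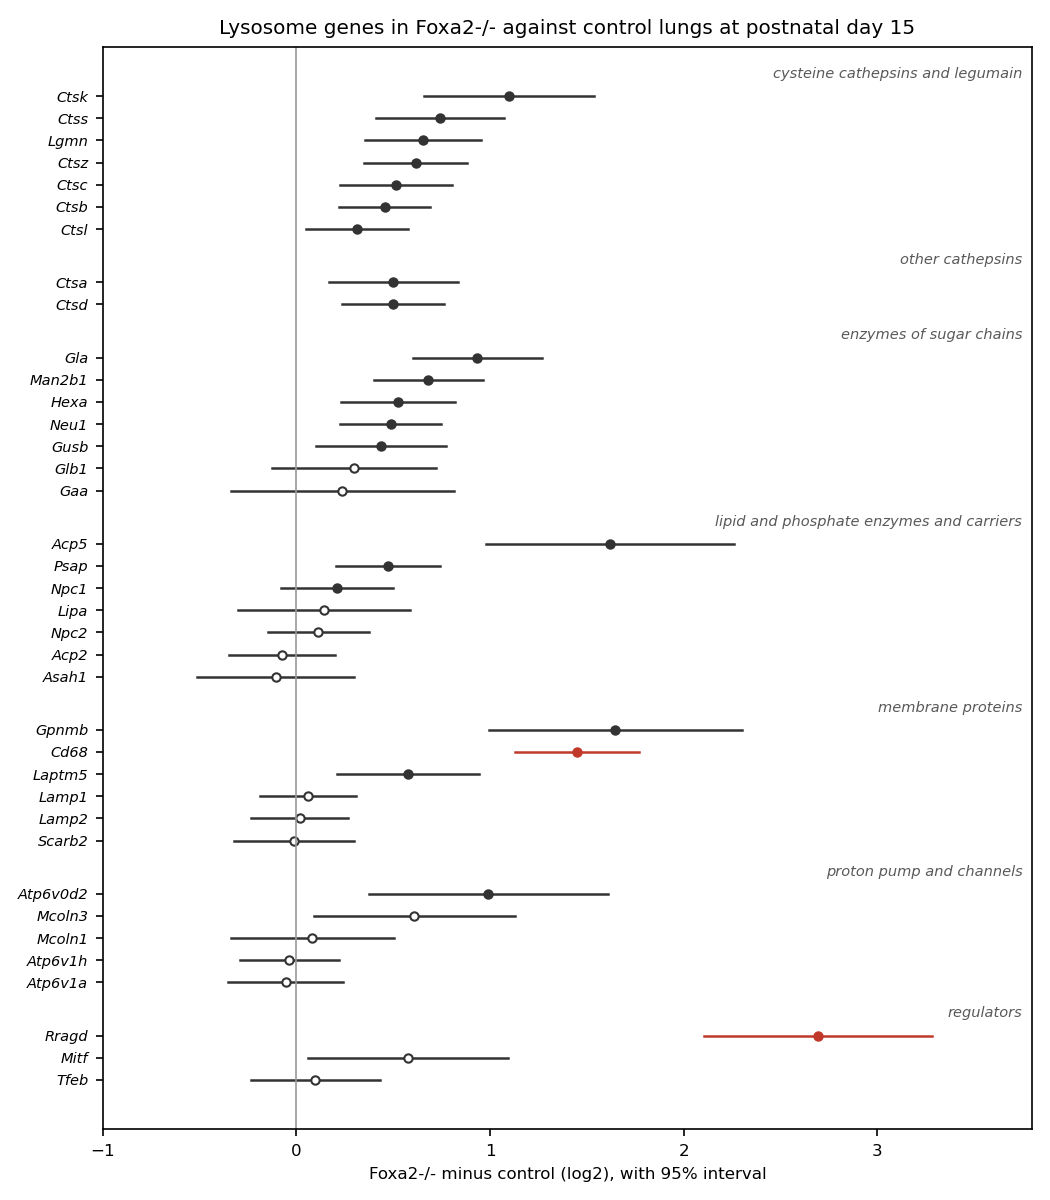
Difference of each of the 37 measured lysosome genes (points, log2 scale, Foxa2-/- minus control, 3 lungs each) with its 95% interval from limma (lines), grouped by role. Filled points mark genes whose Foxa2-/- arrays all lie above the controls, open points mark overlapping groups, and red marks the 2 genes that passed, Cd68 and Rragd; the cathepsins all lie right of 0, while Lamp1, Lamp2 and Scarb2 lie near 0.

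These calls depended on each array other than Foxa2-/- replicate 1. With any 1 control array left out, or Foxa2-/- replicate 2 or 3, none of the 37 passed. In these fits 19 to 21 of the 37 had an unadjusted p under 0.05, as did 1654 to 2111 of all 18193 genes. The limma adjusted p values of Cd68 and then Rragd were 0.138 and 0.129 without control replicate 1, 0.102 and 0.0904 without control replicate 2, 0.0547 and 0.0647 without control replicate 3, 0.0746 and 0.0704 without Foxa2-/- replicate 2, and 0.083 for both without Foxa2-/- replicate 3. Without Foxa2-/- replicate 1, 4 genes passed (Cd68, Rragd, Gla and Atp6v0d2), and 1.37% of all genes were then called in either direction. With a random block for the shared title number 11 passed (1.58% of all genes were then called higher and 0.616% lower). The correlation used by that block rests on the 3 arrays that share the number. As a fixed block the number leaves the comparison to 1 control and 2 Foxa2-/- arrays, and the median difference of the 37 was then 0.41.

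Among the regulators, Rragd had the largest difference of the 37 genes. Rragd encodes RagD, a small GTPase that brings the mTORC1 kinase to the lysosome when amino acids are plentiful, and its own gene is known as a target of the MiT/TFE factors. It read 11.37, 12.20 and 11.95 in Foxa2-/- lungs, against 9.29, 8.83 and 9.31 in control lungs. The groups are far apart, and no Foxa2-/- lung comes near the highest control. The means of 11.84 ± 0.42 in Foxa2-/- lungs and 9.14 ± 0.27 in control lungs (SD, n = 3 each) give a 6.47-fold rise (difference 2.69, SE 0.25, limma adjusted p = 0.0198). Its dimmer probe sets gave smaller differences, 1.66 (SE 0.65) and 0.51 (SE 0.17), and the mean of the 3 probe sets gave 1.62 with a limma adjusted p of 0.0834. With that summary Cd68 and Ctsz passed.

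The MiT/TFE factors themselves did not pass. Mitf read 12.04, 12.38 and 12.48 in Foxa2-/- lungs, against 11.39, 11.66 and 12.11 in control lungs. Only Foxa2-/- replicate 1 and control replicate 3 overlap, and the difference was 0.58 (SE 0.21, limma adjusted p = 0.349). Tfeb, the best known activator of lysosome genes, read 8.71, 8.44 and 8.32 in Foxa2-/- lungs, against 8.33, 8.49 and 8.35 in control lungs. Its groups overlap fully, with a difference of 0.10 and a 95% interval of -0.23 to 0.43. The related genes Tfe3 and Tfec were looked at because they complete the family. Tfe3 differed by 0.11 (95% interval -0.23 to 0.45), while Tfec, the member found mainly in macrophages, read 8.98, 10.43 and 10.14 in Foxa2-/- lungs, against 8.39, 8.68 and 8.39 in control lungs. Every Foxa2-/- lung was above every control for Tfec, replicate 1 by the least, and the difference of 1.36 (SE 0.37) had a limma adjusted p of 0.195. Without Foxa2-/- replicate 1 it was 1.80 (limma adjusted p = 0.0189).

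The MiT/TFE factors bind an E-box with the core CACGTG, and in many lysosome promoters a longer form of it, TCACGTGA. Both read the same on the opposite strand, and the longer form contains the core. They were searched as exact letters in RefSeq windows (GRCm38.p6) from 250 bases before to 50 after each annotated start. Of the 38 genes, 33 had a window; Asah1, Atp6v0d2, Atp6v1h, Ctsb and Npc1 had none. The core was found in 10 of the 33 genes (30.3%), against 8.09% of all 27025 genes with a window and 10.2% of the 14452 that are on the array. The longer form was found in 5 of the 33 (15.2%), against 1.12% and 1.63%. Of 58 other lysosome genes with a window, from the wider list described below, 34.5% held the core and 13.8% the longer form. The matches are thus not particular to the genes chosen here. The 10 genes with the core are Ctsa, Ctsd, Ctsl, Lamp1, Lgmn, Gaa, Gla, Glb1, Atp6v1a and Mcoln1. These matches describe letters in the windows and do not show binding. Only these exact letters were searched, so a gene without a match is not shown to lack a site for these factors. The windows of 6 genes are shown in lower case, 5′ to 3′ along the gene, with each match in capitals. Gla and Ctsd hold the longer form and had every Foxa2-/- lung above the controls. Atp6v1a also holds the longer form and Lamp1 only the core, and both had overlapping groups. Of the 5 genes with the longer form, 3 had every Foxa2-/- array above the controls (10.8% of all genes did). Rragd and Cd68, the genes that rose, hold no match in this window.
Gla, chrX:134600956-134601255, minus strand: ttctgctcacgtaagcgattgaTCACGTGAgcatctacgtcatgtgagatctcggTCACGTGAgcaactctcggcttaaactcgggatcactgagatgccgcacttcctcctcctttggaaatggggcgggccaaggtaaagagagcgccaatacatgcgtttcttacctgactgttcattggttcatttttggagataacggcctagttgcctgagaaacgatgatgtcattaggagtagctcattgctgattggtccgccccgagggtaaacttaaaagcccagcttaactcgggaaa
Ctsd, chr7:142387778-142388077, minus strand: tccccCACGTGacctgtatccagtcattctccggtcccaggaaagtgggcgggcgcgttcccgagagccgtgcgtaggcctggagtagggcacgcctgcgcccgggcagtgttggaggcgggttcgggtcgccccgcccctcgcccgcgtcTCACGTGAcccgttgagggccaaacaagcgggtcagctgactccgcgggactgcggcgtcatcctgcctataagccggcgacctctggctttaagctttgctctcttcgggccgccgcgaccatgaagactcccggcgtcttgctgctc
Lamp1, chr8:13158911-13159210, plus strand: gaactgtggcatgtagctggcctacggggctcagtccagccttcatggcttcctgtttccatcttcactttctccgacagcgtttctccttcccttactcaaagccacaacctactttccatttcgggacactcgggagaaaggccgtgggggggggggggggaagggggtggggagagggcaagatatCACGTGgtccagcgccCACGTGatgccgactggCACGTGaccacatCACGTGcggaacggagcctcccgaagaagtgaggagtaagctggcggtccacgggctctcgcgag
Atp6v1a, chr16:44139210-44139509, minus strand: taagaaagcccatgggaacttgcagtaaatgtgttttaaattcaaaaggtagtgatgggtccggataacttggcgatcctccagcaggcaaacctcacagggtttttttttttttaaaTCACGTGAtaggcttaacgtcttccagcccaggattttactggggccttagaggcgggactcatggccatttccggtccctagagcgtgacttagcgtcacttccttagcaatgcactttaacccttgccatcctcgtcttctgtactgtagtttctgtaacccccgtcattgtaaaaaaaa
Rragd, chr4:32982748-32983047, plus strand: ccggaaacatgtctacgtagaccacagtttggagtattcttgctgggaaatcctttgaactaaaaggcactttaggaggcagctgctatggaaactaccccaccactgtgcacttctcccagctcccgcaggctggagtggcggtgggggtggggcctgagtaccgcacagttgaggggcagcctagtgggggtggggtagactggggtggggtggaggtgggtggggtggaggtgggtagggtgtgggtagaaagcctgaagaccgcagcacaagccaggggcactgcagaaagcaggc
Cd68, chr11:69666121-69666420, minus strand: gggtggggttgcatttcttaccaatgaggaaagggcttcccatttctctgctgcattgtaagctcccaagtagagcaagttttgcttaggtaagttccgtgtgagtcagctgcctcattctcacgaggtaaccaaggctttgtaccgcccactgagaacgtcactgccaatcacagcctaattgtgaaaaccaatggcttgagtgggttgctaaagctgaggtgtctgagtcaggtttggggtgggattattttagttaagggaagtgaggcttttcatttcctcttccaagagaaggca

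The largest differences belonged to genes without the core. Over the 10 with it the median difference was 0.31, from -0.06 (Atp6v1a) to 0.93 (Gla), and 5 had every Foxa2-/- array above the controls. Over the 22 measured genes with a window but no match the median was 0.55, from -0.08 (Acp2) to 2.69 (Rragd), and 14 had every Foxa2-/- array above the controls. No test was made of these medians or counts, and 10.8% of all genes had every Foxa2-/- array above the controls. Other sequences that the MiT/TFE factors may bind were not searched, and the part of these factors in the differences was not tested. Lamp1, with 4 core matches in the window shown above, differed by 0.06. The 5 genes with differences of at least 1 (Rragd, Gpnmb, Acp5, Cd68 and Ctsk) held no core match.

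**Figure D2:**
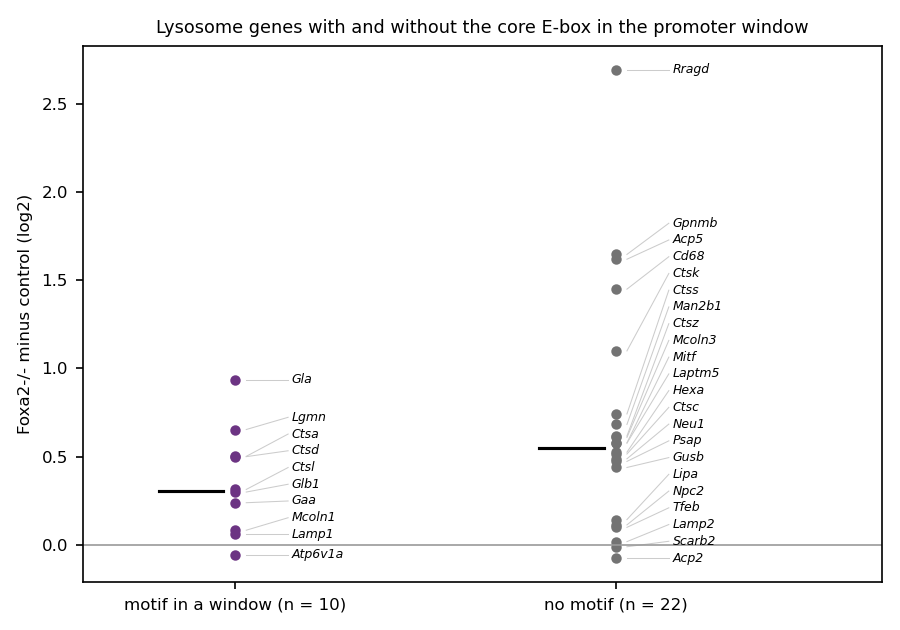
Differences (log2, Foxa2-/- minus control) of the 32 measured lysosome genes with a promoter window, split by whether any window holds the core E-box; short black lines are medians. The 10 genes with a match lie between -0.06 and 0.93, and the 22 without one reach 2.69.

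All 7 cysteine proteases among the chosen genes (cathepsins B, C, K, L, S and Z, and legumain) had every Foxa2-/- lung above every control, as did 10.8% of all genes. Differences of the 7 ran from 0.31 (Ctsl) to 1.10 (Ctsk), with a median of 0.62. None of the 7 passed, at limma adjusted p values from 0.0713 to 0.318. The cysteine cathepsins of the wider list described below were mixed. Ctsh (0.21) lay above all controls in every Foxa2-/- lung, and Ctso (-0.33) lay below them in every one (8.73% of all genes did). Ctsf (0.09) and Ctsw (1.18) had overlapping groups. Ctsk, the collagen-cutting cathepsin best known from osteoclasts, read 10.22, 10.54 and 10.28 in Foxa2-/- lungs, against 8.92, 9.29 and 9.52 in control lungs. That is a 2.14-fold higher mean (difference 1.10, SE 0.18, limma adjusted p = 0.0713). Ctsz, a carboxypeptidase, read 13.31, 13.37 and 13.15 in Foxa2-/- lungs, against 12.72, 12.62 and 12.63 in control lungs. Its difference was 0.62 (SE 0.11, limma adjusted p = 0.0815), and its other probe sets gave 0.76 and 0.88, so the brightest one gave the smallest value. Ctss, which trims the invariant chain of MHC class II in antigen-presenting cells, differed by 0.74 (SE 0.14), and legumain, an asparagine-specific protease, by 0.65 (SE 0.12). Ctsc, which activates serine proteases of granules, differed by 0.51, and the broad proteases Ctsb and Ctsl by 0.46 and 0.31. With a random block for the title number, Ctsk, Ctss, Ctsz, Lgmn and Ctsb passed, at limma adjusted p values from 0.0281 to 0.0471. Ctsc (0.0788) and Ctsl (0.133) did not. Under that block 1.58% of all genes were called higher. None of the 7 passed with any 1 control array left out.

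The other 2 cathepsins among the chosen genes, Ctsd and Ctsa, gave 0.50 each. Ctsd, the aspartic protease of the lysosome, read 13.18, 13.10 and 12.96 in Foxa2-/- lungs, against 12.62, 12.57 and 12.55 in control lungs (SE 0.11, limma adjusted p = 0.128). Ctsa, a carboxypeptidase that also protects the sialidase Neu1 and the galactosidase Glb1, read 12.33, 12.10 and 11.90 in Foxa2-/- lungs, against 11.64, 11.56 and 11.63 in control lungs (SE 0.14, limma adjusted p = 0.207). For both genes the groups do not overlap. The promoter of Ctsd shown above holds 2 core matches.

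All 7 enzymes that cut sugar chains had a positive difference, as did 50.8% of all genes. In 5 of the 7 every Foxa2-/- lung was above every control (10.8% of all genes). Gla, the alpha-galactosidase missing in Fabry disease, came nearest to the threshold without passing it. It read 8.97, 9.33 and 9.09 in Foxa2-/- lungs, against 8.14, 8.10 and 8.34 in control lungs, a difference of 0.93 (SE 0.14, limma adjusted p = 0.0568). It passed with median centring of the arrays and over the brighter genes only. Man2b1, the lysosomal alpha-mannosidase, read 11.36, 11.54 and 11.31 in Foxa2-/- lungs, against 10.62, 10.80 and 10.74 in control lungs (difference 0.68, SE 0.12, limma adjusted p = 0.0776). Hexa, a beta-hexosaminidase subunit, differed by 0.52, the sialidase Neu1 by 0.49 and the beta-glucuronidase Gusb by 0.44. For Glb1, a beta-galactosidase, and Gaa, the alpha-glucosidase that degrades glycogen, the groups overlap, at 0.30 (95% interval -0.13 to 0.72) and 0.24 (-0.34 to 0.82). Within the samples that share a title number Gaa differed by -0.04.

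Among the 7 lipid and phosphate enzymes and carriers, 3 had every Foxa2-/- lung above every control (10.8% of all genes did), and none passed. Acp5, the tartrate-resistant acid phosphatase used as a marker of osteoclasts and of some macrophages, read 11.42, 11.65 and 11.05 in Foxa2-/- lungs, against 10.16, 9.85 and 9.25 in control lungs. The lowest Foxa2-/- lung was above the highest control, and the mean was 3.07-fold higher (difference 1.62, SE 0.27, limma adjusted p = 0.0687). Psap, the precursor of the saposins that help lipid enzymes work, read 13.46, 13.60 and 13.48 in Foxa2-/- lungs, against 13.09, 13.12 and 12.92 in control lungs (difference 0.47, SE 0.11, limma adjusted p = 0.154). Npc1, which exports cholesterol from the lysosome, lay above the controls in every Foxa2-/- lung but by little (0.21, 95% interval -0.08 to 0.50). Its partner Npc2 (0.11), the acid lipase Lipa (0.14), the phosphatase Acp2 (-0.08) and the acid ceramidase Asah1 (-0.11) had overlapping groups.

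Of the 6 membrane proteins measured, 1 rose, where 0.473% of all genes were called higher. In 3 of the 6 every Foxa2-/- lung was above every control (10.8% of all genes). Cd68, a heavily glycosylated protein abundant in macrophages, read 12.20, 12.49 and 12.27 in Foxa2-/- lungs, against 10.79, 10.78 and 11.03 in control lungs. Replicates lie close together in both groups (12.32 ± 0.15 in Foxa2-/- lungs and 10.87 ± 0.14 in control lungs, SD, n = 3 each), and the gene rose 2.73-fold (difference 1.45, SE 0.13, limma adjusted p = 0.0198). Gpnmb, a glycoprotein that macrophages make under lysosomal stress, read 10.24, 10.69 and 10.22 in Foxa2-/- lungs, against 8.22, 8.77 and 9.21 in control lungs. Its difference was larger than that of Cd68 but its controls are more spread (1.65, SE 0.27, limma adjusted p = 0.0687). Laptm5, a lysosomal protein of blood-derived cells, differed by 0.58 (SE 0.15, limma adjusted p = 0.192). For the main structural proteins of the membrane no difference was detectable with 3 lungs a group. Lamp1 read 13.79, 13.66 and 13.65 in Foxa2-/- lungs, against 13.68, 13.65 and 13.60 in control lungs, with a 95% interval of the difference of -0.19 to 0.31. For Lamp2 that interval was -0.23 to 0.27, and for Scarb2, the receptor that carries beta-glucocerebrosidase, -0.32 to 0.30.

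**Figure D3:**
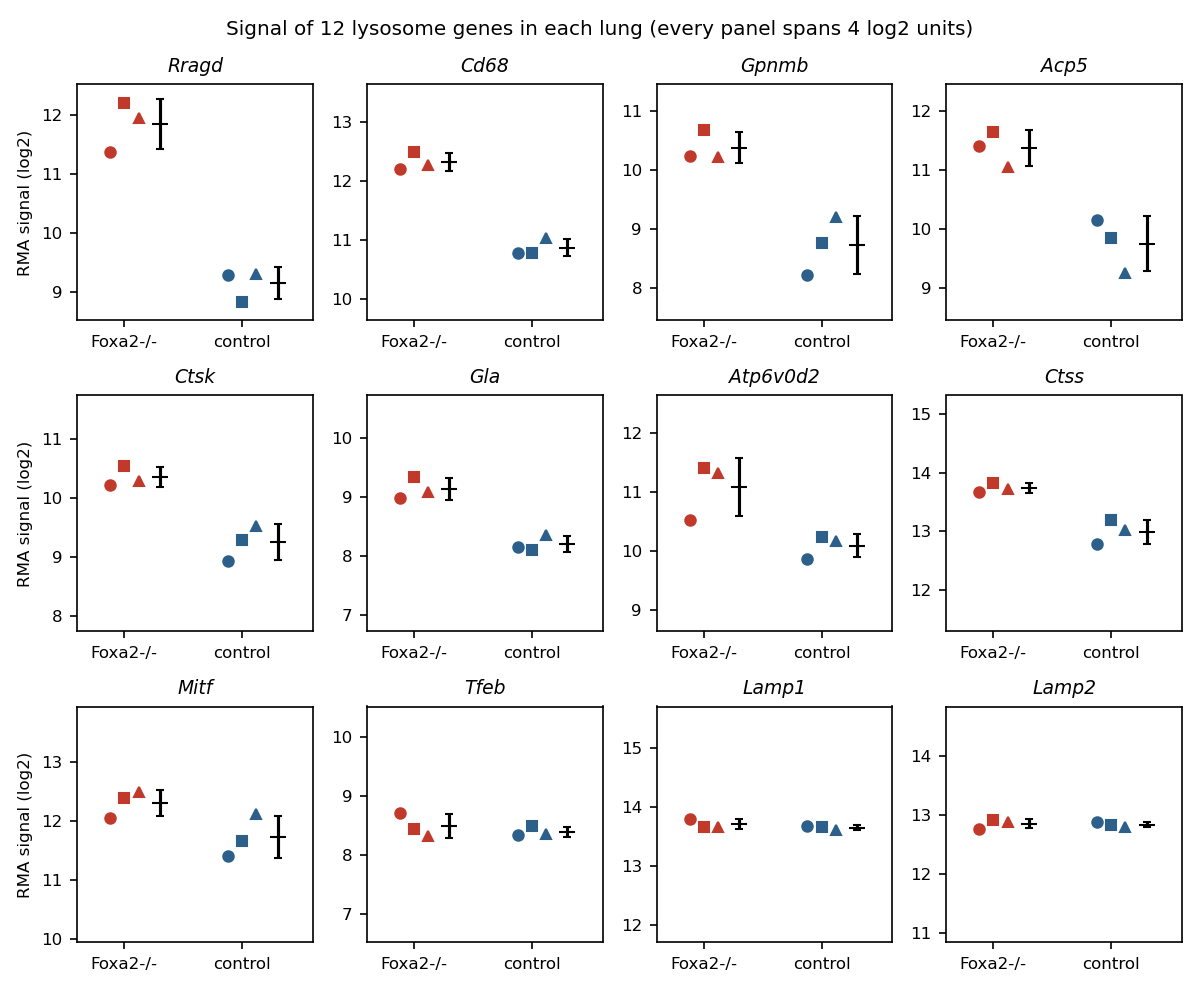
RMA signal (log2) of 12 lysosome genes in each Foxa2-/- lung (red) and each control lung (blue), with circle, square and triangle for replicates 1 to 3 and black marks for the group mean ± SD. Rragd, Cd68, Gpnmb, Acp5, Ctsk, Gla, Atp6v0d2 and Ctss show no overlap between groups, while Mitf, Tfeb, Lamp1 and Lamp2 overlap.

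In the proton pump the largest difference was that of a subunit isoform. Atp6v0d2 encodes the d2 form of a membrane-sector subunit, found chiefly in osteoclasts and macrophages. It read 10.52, 11.41 and 11.32 in Foxa2-/- lungs, against 9.87, 10.25 and 10.17 in control lungs. All Foxa2-/- lungs lie above the controls, replicate 1 only slightly, and the difference of 0.99 (SE 0.26, limma adjusted p = 0.184) became 1.27 without that replicate (limma adjusted p = 0.0316). The common subunits Atp6v1a, which holds the catalytic site, and Atp6v1h, a regulatory one, differed by -0.06 (95% interval -0.35 to 0.24) and -0.04 (-0.29 to 0.22). Over 15 pump subunits measured, these 3 and 12 from a wider list, none passed, 5 lay above all controls in every Foxa2-/- array (10.8% of all genes did) and 0 below (8.73% of all genes did), and the median difference was 0.23. The 5 were Atp6v0d2, Tcirg1 (0.69), Atp6v1b2 (0.57), Atp6v0a1 (0.30) and Atp6v1f (0.27); Tcirg1 is the a3 subunit best known from osteoclasts. Atp6v0d1, the widely expressed counterpart of Atp6v0d2, differed by 0.28 (95% interval -0.10 to 0.67). Among the cation channels, Mcoln3 read 7.88, 8.03 and 7.53 in Foxa2-/- lungs, against 7.02, 7.60 and 6.99 in control lungs, with overlapping groups (0.61, SE 0.22, limma adjusted p = 0.326). Mcoln1, the channel that releases calcium from most lysosomes, differed by 0.08 (95% interval -0.34 to 0.50).

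A wider list of 86 further lysosome genes was read in the same way. Of the 76 measured, none passed in either direction, while 13 had an unadjusted p under 0.05, all with higher signal (17.1%, against 7.28% of all genes). Every Foxa2-/- array lay above all controls in 24 (31.6%, against 10.8% of all genes) and below in 6 of the 76, where 8.73% of all genes lay below, and the median difference was 0.11. The smallest p values belonged to Galc, the enzyme that degrades galactosylceramide (0.74, SE 0.13, limma adjusted p = 0.0796), Cln3 (0.66, SE 0.12, limma adjusted p = 0.0841), Tcirg1 (0.69, SE 0.13, limma adjusted p = 0.0928), Atp6v1b2, Pld3 (0.63) and Gnptab (0.66), part of the enzyme that tags hydrolases for the lysosome. Galc read 10.79, 10.66 and 10.76 in Foxa2-/- lungs, against 9.79, 10.02 and 10.17 in control lungs, with no overlap. On the lower side the smallest p values were those of Slc17a5, the sialic acid exporter (-0.27), Dnase2a, a nuclease (-0.24), Ctso (-0.33), Aga (-0.17), Arsa (-0.20) and Mfsd8 (-0.57), at limma adjusted p values from 0.426 to 0.593. Mfsd8 read 8.34 in Foxa2-/- replicate 1 alone and 9.65 and 9.70 in the other Foxa2-/- lungs, against 9.69 to 9.91 in control lungs.

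Markers of macrophages mostly had higher signals in the Foxa2-/- lungs. Of 9 measured macrophage genes (Csf1r, Adgre1, Lyz2, Cd14, C1qa, C1qb, C1qc, Fcgr1 and Mertk) none passed, all 9 had a positive difference (50.8% of all genes did) and 6 had every Foxa2-/- array above the controls (10.8% of all genes did). Their mean level was 11.24, 11.88 and 11.81 in Foxa2-/- lungs, against 10.88, 10.78 and 10.90 in control lungs. Foxa2-/- replicate 1 was thus the lowest of the Foxa2-/- lungs in this list. Its mean level of the 37 lysosome genes (11.77) was close to that of replicate 3 (11.74). Of the 22 lysosome genes with every Foxa2-/- array above the controls, replicate 1 was lowest in 11, replicate 3 in 10 and replicate 2 in 1. Those 22 were picked by these same values, so the counts only describe them. How the 2 lists relate was not tested. The 3 macrophage genes with the smallest p values were the complement subunit C1qa (1.03), the endotoxin co-receptor Cd14 (1.10) and the macrophage surface receptor Adgre1 (1.40). Of 9 alveolar macrophage genes 1 rose, the integrin Itgax (1.94, SE 0.23, limma adjusted p = 0.036), where 0.473% of all genes were called higher. The list's mean level ran from 11.43 to 11.98 in Foxa2-/- lungs and from 11.00 to 11.01 in control lungs. All 9 had a positive difference (50.8% of all genes did) and 6 had every Foxa2-/- array above the controls (10.8% of all genes did). Fabp4 (0.40), Marco (0.18) and Fabp5 (0.13) had overlapping groups. Siglecf (1.58) is also in the eosinophil list below. The Itgax call was lost with the fixed block (limma adjusted p = 0.285) and without any 1 array other than Foxa2-/- replicate 1 (0.0696 to 0.168). The part of these cells in the lysosome results was not tested. Markers of alveolar type II cells, whose mean level was 13.57 to 13.67 in Foxa2-/- lungs and 13.46 to 13.62 in control lungs, had differences of -0.07 to 0.32, and none of 7 passed. Neutrophil markers had mean levels of 10.03 to 10.59 in Foxa2-/- lungs and 9.81 to 10.63 in control lungs, which overlap.

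Ctsk, Acp5, Atp6v0d2 and Tcirg1 are genes that osteoclasts use to dissolve bone, so other osteoclast markers were read beside them. Of 6, only Ocstamp rose, where 0.473% of all genes were called higher. Ocstamp is a membrane protein needed for the fusion of osteoclasts and macrophages. It read 7.08, 7.57 and 7.54 in Foxa2-/- lungs, against 5.89, 5.60 and 5.15 in control lungs (1.85, SE 0.23, limma adjusted p = 0.0382). The call was lost with cyclic loess (limma adjusted p = 0.0573), with the fixed block (0.17) and without any 1 array other than Foxa2-/- replicate 1 (0.0782 to 0.146). Dcstamp, its partner in cell fusion, read 7.20, 8.77 and 8.05 in Foxa2-/- lungs, against 5.37, 5.87 and 5.67 in control lungs (2.37, SE 0.39, limma adjusted p = 0.0658). Calcr, the calcitonin receptor, differed by 2.32 (SE 0.37, limma adjusted p = 0.0605). For these 3 the groups do not overlap, but in control lungs Ocstamp, Dcstamp and Calcr averaged 5.55, 5.64 and 4.41, dimmer than the lowest 25th percentile of any array (5.69), and no fold is given. Nfatc1 and Oscar, a transcription factor and a receptor of osteoclasts, differed by -0.05 and -0.09, and Tnfrsf11a by 0.33, all with overlapping groups. The mean level of the 6 was 7.56 to 7.76 in Foxa2-/- lungs and 6.39 to 6.61 in control lungs.

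Other cell types were read from short marker lists, and over all genes 0.473% were called higher. Of 4 eosinophil genes 2 rose, Prg2 (3.50) and Epx (2.40), both granule proteins, and the list's mean level was 8.63 to 9.97 in Foxa2-/- lungs and 6.72 to 7.53 in control lungs. Of 4 genes of thymus or lymph node tissue Dntt rose (4.08), with mean levels of 10.24 to 11.18 in Foxa2-/- lungs and 7.49 to 9.01 in control lungs. With the fixed block none of these 3 calls held (limma adjusted p 0.131 for Prg2, 0.166 for Epx and 0.291 for Dntt). Prg2 and Epx did not pass without control replicate 1 or 2, or Foxa2-/- replicate 2 or 3 (limma adjusted p 0.0538 to 0.104 for Prg2 and 0.0761 to 0.137 for Epx). Dntt did not pass with cyclic loess (limma adjusted p = 0.0555) or without any 1 array (0.0679 to 0.157). No gene passed among 2 of monocytes, 3 of dendritic cells, 4 of mast cells, 5 of melanocytes and 4 of heart muscle, and the general leukocyte gene Ptprc differed by 0.36 with overlapping groups. The part of these cells in the lysosome results was not tested.

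**Figure D4:**
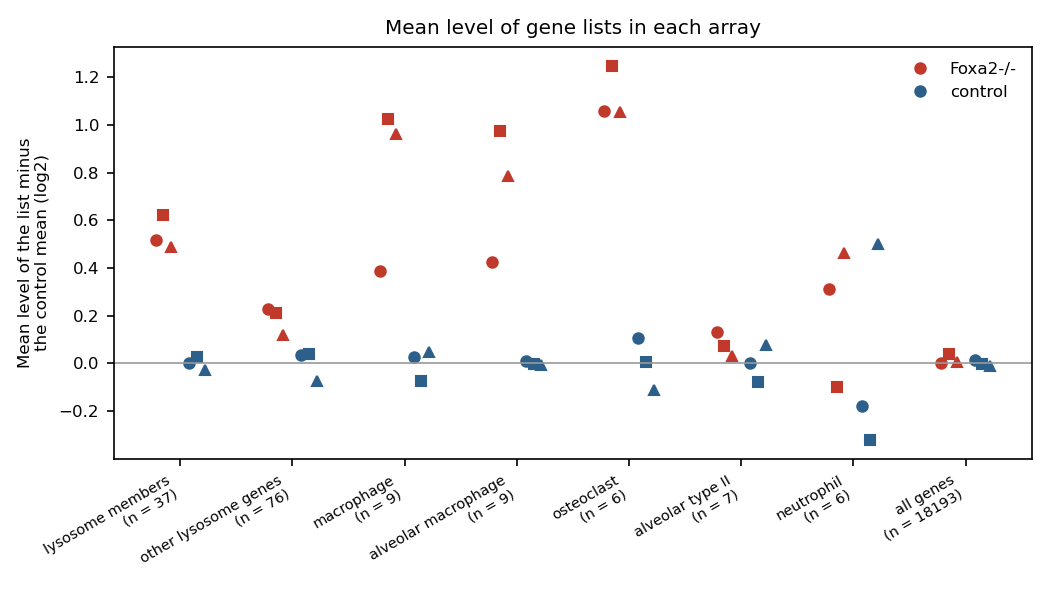
Mean level of each gene list in each array, minus the mean of the 3 control arrays (log2), with circle, square and triangle for replicates 1 to 3; n is the number of genes measured. The Foxa2-/- arrays (red) lie above all control arrays (blue) for the lysosome, macrophage, alveolar macrophage and osteoclast lists and overlap them for neutrophil markers, and Foxa2-/- replicate 1 is the lowest for the 2 macrophage lists.

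The 37 lysosome genes have 81 probe sets, and 25 genes have more than 1. Of the 81, 73 had a positive difference (51.1% of all probe sets did), 43 had every Foxa2-/- array above all controls (9.73% of all probe sets) and 0 had every one below (7.76%). At the level of probe sets 3 passed, where 0.0799% of all probe sets were called higher and 0.02% lower: those of Cd68 and Rragd and a dimmer one of Laptm5. That Laptm5 probe set read 11.56, 11.76 and 11.42 in Foxa2-/- lungs, against 10.25, 10.43 and 10.14 in control lungs, a difference of 1.31 (SE 0.14, limma adjusted p = 0.0492), whereas the brightest one, with means of 13.66 in Foxa2-/- lungs and 13.09 in control lungs, gave 0.58. Over the 25 genes the brightest probe set gave the smallest difference in 13, the largest in 7 and one in between in 5. Psap is among the 13, at 0.47 for the brighter and 0.82 for the dimmer probe set. Gla is among the 7, at 0.93 for the brightest and 0.79 and 0.19 for the others. The other Ctsl probe set read 9.49, 5.19 and 9.10 in Foxa2-/- lungs, against 8.54, 5.12 and 4.61 in control lungs, so its values jump within both groups while the bright one does not.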

How the data were processed

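Whole-lung RNA of 6 samples (3 Foxa2-/-, 3 control) was measured on 1 array each. The deposited values are log2 signals made by the authors with RMA, per the submitters' processing notes; no version or setting of it is stated in the labels. No genome build goes with them, and the arrays' sorted values differ by at most 0.138 at any rank. From 45101 probe sets, 64 controls were left out. Of the rest, 34945 had 1 gene symbol, 932 several and 9160 none, and the 18193 genes were each represented by the brightest probe set annotated to them alone. The test was limma's moderated one (version 3.58.1, R 4.3.3; lmFit, then eBayes, without covariates or a filter), two-sided, with Benjamini-Hochberg adjustment over all genes. A random block for the title number used duplicateCorrelation (statmod 1.5.0). Its consensus correlation of 0.603 rests on the 3 arrays that share a number, since the other arrays each have their own. The main fit, without a block, was tested on simulated data.

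Groups come from the genotype label. Replicate numbers follow accession order and pair nothing. Whether each array comes from its own animal is not stated, and p-values therefore reflect only the scatter of these samples, part of which may be technical. Members and lists were chosen with earlier results of these data known. Values per sample are given for Foxa2 and for members that passed, differed by at least 1 or had one of the 2 smallest p values of their role. Of the wider list up to 6 genes a direction, and of marker lists up to 3, are named by smallest p. Tfeb, Lamp1, Tfec, Tfe3, Mcoln2, Atp6v0d1 and some probe sets, and other genes named beyond this rule, were picked after their values were seen. In the wider list, 76 of 86 genes were measured. Alternatives were median centring, cyclic loess, filters on dim probe sets, array weights, trend and robust settings, a block for the title number, averaging each gene's probe sets, a looser threshold of 0.1 and leaving out each sample. Promoter sequences are from RefSeq (GRCm38.p6).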

Additional observations from a re-analysis of the deposited data

How the results depend on the processing

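The replicate numbers follow accession order and pair nothing, so none of the fits used them as a block; the title number common to 2 Foxa2-/- arrays and 1 control served as the block instead. Of the alternatives run on 67 single genes, 913 values kept their direction and side of the threshold, 80 newly passed, 44 no longer passed and 25 changed sign; the cause was not tested. The alternatives were applied to Tfec, Tfe3, Prg2, Epx and Dntt after seeing the data. Genes changed numbered 104 of 18193 as reported, and 48 with cyclic loess, 607 with array weights, 399 with a random block for the title number, 320 at an adjusted p under 0.1, 0 with a fixed block for it (limma, 2121 at an unadjusted p under 0.05) and 0 to 249 leaving out 1 array (0 without Foxa2-/- replicate 3, control replicate 1 or control replicate 2, with 2111, 1654 and 1801 at an unadjusted p under 0.05). Lysosome members that rose numbered 2 as reported, and 5 with trend and robust settings, 13 with array weights, 11 with the random block, 10 at an adjusted p under 0.1, 0 with the fixed block and 0 to 4 leaving out 1 array. Of the wider list 0 passed as reported, 7 passed with array weights, 5 with the random block, 3 at an adjusted p under 0.1, and 0 to 1 leaving out 1 array. The members' median of 0.49 was 0.41 with the fixed block and 0.43 to 0.53 leaving out 1 array. None of the genes that changed sign passed in any of these fits. Scarb2 was 0.011 with median centring, 0.038 with array weights, 0.0067 with the fixed block, 0.17 with the mean of probe sets and -0.11 to 0.076 leaving out 1 array. With the fixed block Gaa was -0.037, Atp6v1h 0.072, Mcoln1 -0.017, Tfeb -0.11 and Tfe3 -0.036. With array weights Atp6v1a was 0.0056 and Mcoln1 -0.049; with the random block Atp6v1h was 0.011; with the mean of probe sets Acp2 was 0.046 and Atp6v1a 0.024. Leaving out 1 array, the range was -0.015 to 0.062 for Lamp2, -0.25 to 0.026 for Asah1, -0.012 to 0.24 for Lipa, -0.11 to 0.036 for Atp6v1a, -0.079 to 0.017 for Atp6v1h, -0.069 to 0.22 for Mcoln1, -0.014 to 0.18 for Tfeb and -0.026 to 0.19 for Tfe3. RMA values carry no background flag, so dim signals have no measured floor, and changes common to most genes are not seen.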

Other observations

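Probe sets of 6 genes differed in sign from the one that represents the gene: Ctsa, Acp2, Npc2, Scarb2, Atp6v1a and Atp6v1h. For Npc2 a probe set with means of 12.21 in Foxa2-/- lungs and 11.82 in control lungs had every Foxa2-/- array above the controls (0.38), while the dimmest gave -0.28. Mcoln2, the remaining mucolipin channel, had every Foxa2-/- array above the controls (0.94, SE 0.26, limma adjusted p = 0.202). Of 5 melanocyte genes none passed and 2 had every Foxa2-/- array above the controls, as did 10.8% of all genes. The 2 were Mlana (1.58, SE 0.30, limma adjusted p = 0.0928) and Tyr (0.22). Tyr was dim in both groups, as were Tyrp1 (0.11) and Dct (0.03). Pmel differed by -0.26, with means of 7.06 in Foxa2-/- lungs and 7.33 in control lungs and overlapping groups.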
